A study of Mus musculus with 60 samples.

Results

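The acute phase proteins are plasma proteins that hepatocytes make in larger amounts after infection or injury. The 10 genes described here are those of the serum amyloid A family (Saa1, Saa2, Saa3 and Saa4), of the orosomucoids or alpha-1-acid glycoproteins (Orm1, Orm2 and Orm3), of the haemoglobin and haem carriers haptoglobin (Hp) and hemopexin (Hpx), and of the protease trap alpha-2-macroglobulin (A2m). They were chosen by name. All 10 were present among the 19355 genes measured in cultured cells and among the 17473 measured in liver, and 0 of them were among the 480 genes for which values at D7 of culture were given.

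The study asked how interleukin 6 (IL6) makes mouse hepatocytes proliferate in culture, and followed liver regrowth after partial hepatectomy (PHX). The labels give all samples as wild type (WT) and C57BL/6, and the study's methods give C57BL/6J mice of 8 to 10 weeks for the isolation of hepatocytes and for partial hepatectomy. Polyadenylated RNA was sequenced in 60 samples, in 20 groups of 3. Hepatocytes were freshly isolated by collagenase perfusion. IL6-iHPCs, the proliferating progenitor-like cells, were hepatocytes grown in a serum-free medium with insulin, transferrin and selenium, EGF, HGF, dexamethasone and IL6, and were taken unpassaged (P0) at D3 and D14 and, after passage, as mouse-1 at P10, mouse-2 at P10, clone-1 at P20 and mouse-1 at P35. The passaged cells are counted below as 4 lines, although mouse-1 at P10 and at P35 share the label of 1 mouse. A separate set held primary hepatocytes and unpassaged cells at D7 of culture with IL6 and without it. IL6-iMHs were the same 4 lines after 7 days in a maturation medium that held dexamethasone and oncostatin M but neither IL6, EGF nor HGF. All cultures thus held dexamethasone, but the maturation medium held it at a higher concentration. Clone-1 is a line grown from 1 cell, and the study describes its clones as grown from tdTomato hepatocytes of offspring of Albumin-Cre and R26RtdTomato mice, although the labels give clone-1 as WT. Livers were untreated (normal) or taken 6 h, 24 h, 3 days, 7 days or 14 days after surgery; a sham-operated group was not among them. The 3 samples of a cell group were described by the study as technical repeats, so that p-values between cell groups cover the spread of such repeats alone. The labels do not say whether the 3 livers of a group came from separate animals.

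In the acute phase response, macrophages in an inflamed or damaged tissue release IL1, TNF and IL6, and hepatocytes answer by secreting more of the positive acute phase proteins and less of others such as albumin and transthyretin. IL6 acts through its receptor and gp130 on JAK kinases and STAT3, and factors of the C/EBP and NF-kB families act with it on many of these genes. Serum amyloid A1 and A2 travel on high-density lipoprotein and are among the most inducible plasma proteins, serum amyloid A4 is made constitutively, and serum amyloid A3 is also made by macrophages and adipocytes. Orosomucoids bind lipophilic drugs and dampen immune reactions, haptoglobin captures free haemoglobin, and hemopexin captures free haem. In the mouse, unlike the rat, alpha-2-macroglobulin activity of plasma comes largely from Pzp and the murinoglobulins rather than from A2m.

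The genes lie in few places (build GRCm38, mm10). The 4 Saa genes form a cluster on chromosome 7, with Saa3 at 46711998 to 46719615, Saa4 at 46727992 to 46732603, Saa1 at 46740497 to 46743181 and Saa2 at 46751833 to 46754313. The Orm genes sit side by side on chromosome 4, Orm1 at 63344556 to 63348163, Orm3 at 63356069 to 63359506 and Orm2 at 63362449 to 63365877. Hpx is at 105591611 to 105600116 on chromosome 7, Hp at 109575128 to 109579172 on chromosome 8 and A2m at 121636165 to 121679238 on chromosome 6. Saa1 and Saa2 are near-identical copies, as are the Orm genes, so the split of reads within each of these sets is uncertain, and the RefSeq gene table lists the symbols Saa1 and Saa2 as older names of each other.

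RefSeq promoter windows of 7 of the 10 genes were at hand, and those of Orm1, Hp and A2m were not. In each of the 4 windows shown, the 250 bases before the annotated gene start, capitals mark the letters TTNCNNAA of a C/EBP site on either strand. They are shown because these genes span the contrasts described in liver. They are a strongly induced Saa and Orm gene, the Saa gene not called after surgery in the fit over all groups, and a haem carrier. The windows are chr7:46751583-46751832 on the plus strand, chr7:46732604-46732853 on the minus strand, chr4:63362199-63362448 on the plus strand and chr7:105600117-105600366 on the minus strand, each written 5′ to 3′ along the gene.
Saa2: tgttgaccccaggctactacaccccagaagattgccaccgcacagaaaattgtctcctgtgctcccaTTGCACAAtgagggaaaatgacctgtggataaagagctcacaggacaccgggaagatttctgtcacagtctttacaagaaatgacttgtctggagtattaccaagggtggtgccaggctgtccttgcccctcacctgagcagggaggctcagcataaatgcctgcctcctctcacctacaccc
Saa4: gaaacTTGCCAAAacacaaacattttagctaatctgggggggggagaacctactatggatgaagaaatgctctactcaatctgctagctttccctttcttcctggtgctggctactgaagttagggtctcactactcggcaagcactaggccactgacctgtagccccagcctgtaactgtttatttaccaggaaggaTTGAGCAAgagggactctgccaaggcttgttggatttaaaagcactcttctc
Orm2: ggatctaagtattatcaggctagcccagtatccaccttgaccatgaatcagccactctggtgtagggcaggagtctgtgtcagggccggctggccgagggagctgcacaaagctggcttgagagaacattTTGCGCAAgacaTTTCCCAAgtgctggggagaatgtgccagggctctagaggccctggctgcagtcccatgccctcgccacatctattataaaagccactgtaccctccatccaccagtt
Hpx: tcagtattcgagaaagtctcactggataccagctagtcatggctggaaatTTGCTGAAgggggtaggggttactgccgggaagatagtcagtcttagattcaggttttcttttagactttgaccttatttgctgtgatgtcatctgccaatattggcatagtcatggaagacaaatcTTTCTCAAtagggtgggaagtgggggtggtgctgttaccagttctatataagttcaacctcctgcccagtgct
The letters TTNCNNAA were in all 7 windows, against 36.8% of 32851 mouse promoter windows of the same length. In Saa2 they stood at bases −183 to −176 before the start, in Saa4 at −245 to −238 and −52 to −45, in Orm2 at −120 to −113 and −108 to −101, and in Hpx at −200 to −193 and −73 to −66. The other letters searched, on both strands, were TTCNNNGAA for STAT factors (7.02% of all windows), TTCCNGGAA for STAT3 (0.913%, a subset of the former), GGGANTTTC for NF-kB (0.941%) and GTTAATNAT for HNF1 (0.737%). Each was in 0 of the 7 windows, which says only that these letters were not in these windows. With no gap allowed, the Saa1 and Saa2 windows were equal at 79.1% of 249 bases and those of Orm2 and Orm3 at 67.5% of 249, while other pairs were equal at 26.6% to 32.8%. The 7 windows are thus not independent of each other. By the annotated gene spans, the Saa3 window lay inside its gene, and the Saa1 and Orm3 windows overlapped the start of theirs.

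Levels are given in FPKM, the number of fragments scaled to the length of the transcript and to the mapped fragments of the library. Between 49.2 M and 88.1 M reads (M, mega) per library fell on genes in the cell samples and between 52.1 M and 79.9 M in the livers, so that the precision of the higher members is set by the spread between samples and not by counting. A gene was called when limma, fitted to log2(FPKM + 1) over all groups of a table, gave it a fold of 2 or more, in either direction, with an adjusted p below 0.05. Log2 changes carry their standard error. The hepatocyte label held, as 8 hepatocyte marker genes summed to 76553 to 82315 FPKM in hepatocytes, 57705 to 62792 in normal liver and 60032 to 82057 in IL6-iMHs, but to 654 to 777 at D3, 3839 to 4850 at D14 and 1823 to 9347 in passaged IL6-iHPCs. The 6 biliary markers summed to 3.84 to 3.94 FPKM in hepatocytes. In IL6-iMHs they summed to 1042 to 1408 FPKM in mouse-1 at P10, mouse-2 and clone-1, and to 200 to 224 at P35. On the log2 scale the median of all genes was 1.14 above hepatocytes at D3, 1.00 above at D14, and 0.66 to 1.16 above in passaged IL6-iHPCs. After quantile normalization these medians were 0.11, 0.09 and 0.05 to 0.14, so each difference from hepatocytes is read against the median of all genes. The split of all genes into higher and lower calls moved with it. Against hepatocytes it went from 6641 and 1494 to 3179 and 2749 at D3 and from 6163 and 1595 to 3117 and 2785 at D14, and it became 2756 to 3124 and 2355 to 2544 in passaged IL6-iHPCs, 1402 to 2143 and 1157 to 1947 in IL6-iMHs, and 1104 to 1925 and 1064 to 2064 with maturation.

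Some libraries stood apart. The sum of 4 Y-linked genes was 33.9 to 38.7 FPKM in clone-1 IL6-iHPCs and 0 in clone-1 IL6-iMHs, so the samples labelled clone-1 before and after maturation did not match each other in this respect, and results on the maturation of clone-1 rest on them. It was 5.46 to 7.21 FPKM in hepatocytes, 53.4 to 81.4 at D3 and D14 and at most 0.0157 in all mouse-1 and mouse-2 groups, so comparisons of hepatocytes with every cultured group are also between cells that differ in this sum. Livers had 17.2 to 79.0 FPKM. Over all genes replicate 2 of PHX-D3 differed most within that group (chi-square per degree of freedom of read numbers 1013 and 1206 against the other livers of the group, 307 between those). It had the lowest sum of hepatocyte markers (35998 FPKM) and the highest sum of Kupffer cell markers (626 FPKM) of its group, and replicate 3 of PHX-D3 had the lowest level of its group in each member but Saa4. A2m was at 14.7 FPKM in replicate 3 of PHX-6h and at 9.67 FPKM in replicate 2 of PHX-24h, against 0.00603 to 0.769 FPKM in the other 16 livers.

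When hepatocytes were put into culture with IL6, the acute phase genes did not move together. At D3, Saa3 and Orm2 were higher than in hepatocytes while Orm1, Hpx and Saa4 were lower, and by D14 most members were lower still, with Hp as the member nearest to its starting level and A2m as a transcript hardly seen before. Called higher at D3 were 2 of the 10 members, and 3 were called lower, where the shares of the 12328 genes tested were 53.9% and 12.1%. Quantile normalization turned this split to 3 and 2. For D14 the counts were 2 and 6, against 50% and 12.9% of all genes. Members had a median log2 change of −0.24 at D3 and −1.39 at D14. From D3 to D14 alone, 8 members were called lower and 1, A2m, higher (5.05% and 5.12% of all genes), and the remaining one, Hp, was at −0.47 ± 0.09.

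Saa3 was at 8.54, 6.80 and 9.52 FPKM in hepatocytes and at 195, 260 and 100 FPKM at D3, so every D3 sample lay above every hepatocyte sample. The log2 change of Saa3 was 4.23 ± 0.26 (adjusted p = 9.9e-16). By D14 its levels were 21.5, 18.4 and 20.8 FPKM, 1.20 ± 0.26 above hepatocytes on the log2 scale, close to the median gene and at −0.07 by voom, a fit to the read numbers recovered from the FPKM. Saa1 took the other course. It was at 86.6, 77.6 and 91.2 FPKM in hepatocytes, 49.1, 76.9 and 33.2 at D3, and 7.26, 6.54 and 5.97 at D14, a log2 change of −3.50 ± 0.19 at D14 (adjusted p = 7.9e-17). At D3 Saa1 (−0.75) and Saa2 (−0.49) were not called, but by voom both were (−2.34 and −2.09), and Saa2 also by quantile normalization (−1.26). Saa2 followed Saa1 downwards by less, from a mean of 24.9 ± 1.16 FPKM (SD, n = 3) to 7.18 ± 1.39 FPKM at D14. Saa4, the constitutive member, had 167, 166 and 174 FPKM in hepatocytes, its highest level in any cell group, then 64.7, 54.2 and 48.0 at D3 and 7.52, 10.1 and 8.33 at D14. Its log2 change was −4.14 ± 0.11 at D14 (adjusted p = 1.1e-24).

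Orm1, the most abundant orosomucoid, was at 1333, 1301 and 1457 FPKM in hepatocytes, 681, 676 and 539 at D3 and 89.1 to 90.4 at D14. Its log2 change was −1.11 ± 0.11 at D3, where quantile normalization turned it to 0.35, and −3.91 ± 0.11 at D14. Orm2 rose at D3, from 18.1, 18.3 and 19.8 FPKM to 71.4, 60.6 and 54.5, a log2 change of 1.67 ± 0.12 (adjusted p = 1.4e-13, but 0.14 and not called by voom). It stood at 12.3, 11.6 and 10.8 FPKM at D14, which was not called against hepatocytes (−0.66) but was called lower by quantile normalization (−1.44) and voom (−2.10). Orm3 was a rare transcript throughout. Its 1.47 to 1.55 FPKM in hepatocytes became 2.36 to 3.76 FPKM at D3 (not called) and 0.0755 to 0.255 FPKM at D14 (8 to 27 reads).

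Hp was among the steadiest of the 10 genes. Levels were 2570, 2334 and 2485 FPKM in hepatocytes, 3266, 3894 and 2933 at D3 and 2575, 2464 and 2231 at D14. Its log2 change was 0.44 ± 0.09 at D3 and −0.02 ± 0.09 at D14 (adjusted p = 0.802), which put Hp below the median gene at both times. This placing depended on scale, since Hp was at 2.11 at D3 and 1.06 at D14 after quantile normalization but at −1.15 and −1.43 by voom. Hpx, the most abundant member in hepatocytes, was at 8792, 7844 and 9019 FPKM there, 2627, 2867 and 2559 at D3 and 1341, 1301 and 1178 at D14, log2 changes of −1.67 ± 0.11 and −2.75 ± 0.11, the former at −0.03 after quantile normalization.

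A2m was all but absent from hepatocytes (0.00322, 0.0452 and 0.0155 FPKM, from 1, 16 and 4 reads) and from D3 cells (3 to 17 reads). At D14 it reached 63.4, 71.9 and 56.3 FPKM on 14258 to 17522 reads, a log2 change of 5.98 ± 0.06 (adjusted p = 8.0e-35). No passaged line kept that level. The 8 stellate cell markers summed to 25.2 to 27.1 FPKM at D14 against 0.778 to 1.28 at D3. Almost all of the D14 sum came from Dcn, which encodes the matrix proteoglycan decorin (24.8 FPKM on average), with 0 of the other 7 at 1 FPKM or more. The sum of all 8 was 10.2 to 19.4 FPKM in mouse-1 IL6-iHPCs at P10, where A2m averaged 0.0650 FPKM. In mouse-2 IL6-iMHs, where A2m averaged 4.68 FPKM, it was 0.423 to 0.611. Biliary markers summed to 4060 to 4483 FPKM at D14 and 3.84 to 3.94 FPKM in hepatocytes. The part of other cells in the A2m signal was not tested, and in these bulk samples a change in the cells present and a change in RNA per cell cannot be told apart.

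**Figure D1:**
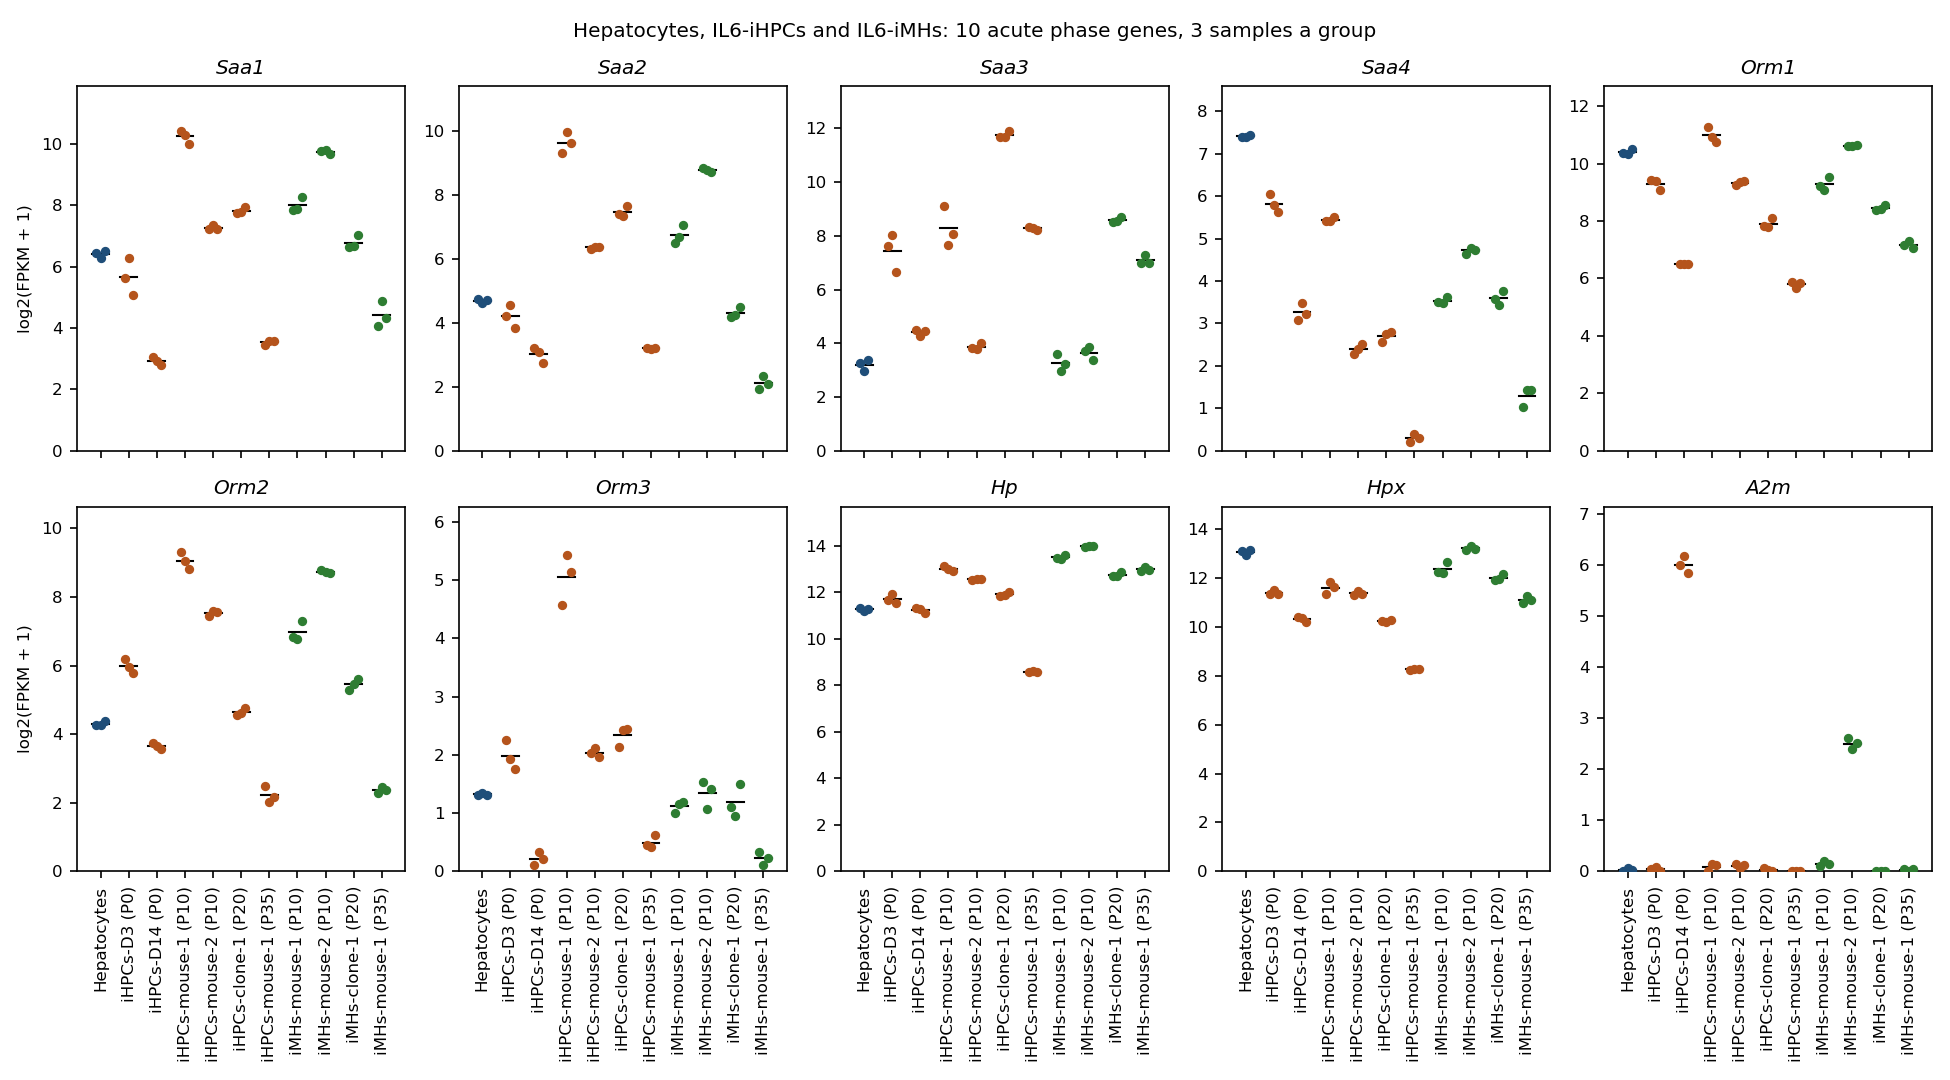
Levels of the 10 genes on the scale log2(FPKM + 1) in the 11 cell groups, one panel a gene. Dots are the 3 samples of a group and bars the mean of their log2 values. Saa4 is highest in hepatocytes (blue), A2m is seen in D14 IL6-iHPCs and in mouse-2 IL6-iMHs, and Saa3 peaks in clone-1 IL6-iHPCs at 3298 to 3822 FPKM.

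Passaged IL6-iHPCs differed widely from line to line in these genes, with mouse-1 at P10 highest and the same line at P35 lowest in mean level for 8 of the 10, all but Saa3 and A2m. Against hepatocytes, 6 members were higher and 2 lower in mouse-1 at P10 (40% and 12.6% of all genes), 3 and 3 in mouse-2 (42.8% and 13.1%), 4 and 3 in clone-1 (51.5% and 10.4%) and 1 and 7 in mouse-1 at P35 (54.3% and 11.7%). The members' median log2 change was 2.74, 0.69, 0.50 and −2.39 in that order of lines, against medians of all genes of 0.66, 0.76, 1.05 and 1.16. All 4 comparisons share the hepatocyte samples.

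In mouse-1 cells at P10, Saa1 was at 1384, 1271 and 1036 FPKM and Saa2 at 640, 1003 and 783 FPKM, log2 changes of 3.83 ± 0.19 and 4.94 ± 0.15 from hepatocytes. Mouse-2 cells held far less, with Saa1 at 149, 162 and 149 FPKM and Saa2 at 79.2, 82.2 and 81.9. Clone-1 cells lay between, with Saa1 at 217 to 245 FPKM and Saa2 at 163 to 199, and at P35 Saa1 was at 9.88 to 11 FPKM. Every line was thus separate from every other in Saa1 and Saa2 with no overlap of samples. These samples are technical repeats, and the share of all genes without overlap was not counted. Between mouse-1 at P35 and P10, 10395 of 12328 genes had an unadjusted p under 0.05 by limma. By voom, Saa1 of clone-1 was at −0.00 against hepatocytes, where limma gave 1.41 ± 0.19.

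Saa3 had its own order. Clone-1 cells were highest at 3304, 3298 and 3822 FPKM, a log2 change of 8.56 ± 0.26 from hepatocytes (419-fold of means, adjusted p = 2.7e-23). Mouse-1 cells held 551, 202 and 268 FPKM at P10 and 319, 311 and 297 FPKM at P35, while mouse-2 cells were at 13.2, 12.8 and 15.1 FPKM, close to hepatocytes. Genes of the recruited myeloid list, markers of cells in which Saa3 can also be made, summed to 36.2 to 46.2 FPKM in clone-1, 92.6 to 98.8 at P35, 0.908 to 1.67 in mouse-1 at P10 and 0.648 to 0.831 in mouse-2. Few of these 8 genes averaged 1 FPKM or more: 3 in clone-1, 3 at P35, 1 in mouse-1 at P10 and 0 in mouse-2. The 10 Kupffer cell markers summed to at most 4.31 FPKM in all 4 lines, with 7 to 9 of the 10 at 0. The part of such cells in the Saa3 level was not tested.

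Saa4 was lower than in hepatocytes in every passaged line. It was at 41.3, 41.8 and 44.5 FPKM in mouse-1 at P10, 3.82 to 4.69 in mouse-2, 4.88 to 5.91 in clone-1 and 0.160 to 0.323 at P35, with log2 changes of −1.97, −5.02, −4.71 and −7.10. Of the orosomucoids, Orm1 was at 2463, 1923 and 1738 FPKM in mouse-1 at P10 (0.57 ± 0.11 on the log2 scale, not called) and lower than in hepatocytes in the other lines, at 608 to 676, 219 to 272 and at most 57.5 FPKM in mouse-2, clone-1 and P35. Orm2 reached 630, 530 and 452 FPKM in mouse-1 at P10 and 173, 193 and 187 FPKM in mouse-2, log2 changes of 4.75 ± 0.12 and 3.23 ± 0.12. In clone-1 it was at 22.8 to 26.1 FPKM (0.34, not called, and −1.06 by voom). Orm3 had its peak of all cell groups in mouse-1 at P10, at 22.7, 41.9 and 34.2 FPKM, and was called higher in clone-1 (1.01 ± 0.15), a call that turned to −0.40 under quantile normalization and −0.02 by voom.

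Hp was at 8950, 8220 and 7759 FPKM in mouse-1 at P10, 5895 to 6154 in mouse-2 and 3687 to 4182 in clone-1, then at 378, 386 and 377 at P35, the lowest of all cell groups. Hpx was lower than in hepatocytes in each line, at log2 changes of −1.46 to −4.79, with 2612, 3686 and 3129 FPKM in mouse-1 at P10 and 304, 309 and 308 FPKM at P35. A2m stayed at 28 reads or fewer per library in all 4 lines. By voom the calls of Hp in mouse-1 (0.69) and mouse-2 (0.16) and of Saa2 in mouse-2 (0.57) were lost, and after quantile normalization so were those of Orm1 in mouse-2 (−0.03) and Hpx in mouse-1 and mouse-2 at P10 (−0.94 and −0.99). Calls gained by quantile normalization were Orm1 in mouse-1 at P10 (1.15), Saa1 in mouse-2 (1.35), Hp in clone-1 (1.88) and Orm3 at P35 (−1.87).

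Between P10 and P35 of the mouse-1 line, 8 of 10 members were called lower and 0 higher, where 8.94% of all genes were lower and 24.8% higher. Orm2 was 145-fold lower, Saa1 116-fold and Saa2 98.7-fold (ratios of mean FPKM), with log2 changes of −6.83 ± 0.12, −6.72 ± 0.19 and −6.44 ± 0.15. Orm1, Saa4, Orm3, Hp and Hpx were at −5.18, −5.14, −4.55, −4.44 and −3.34 on the log2 scale. Saa3 was at −0.01 ± 0.26 (adjusted p = 0.989), and A2m was near 0 at both passages. The median log2 change of the members was −4.84 and that of all genes 0.36. Hepatocyte markers summed to 7115 to 8106 FPKM at P10 and 1823 to 1863 at P35.

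Maturation, the step from IL6-iHPCs to IL6-iMHs, removed IL6, EGF and HGF, raised dexamethasone and added oncostatin M, another cytokine that signals through gp130. The members moved in opposite directions in different lines. In mouse-1 at P10, 0 were called higher and 7 lower (9.59% and 15.4% of all genes). In mouse-2 at P10, 8 were higher and 0 lower (11.2% and 28.6%). In clone-1 the counts were 1 and 4 (5.86% and 17.7%) and in mouse-1 at P35 3 and 2 (10.2% and 35.1%). For clone-1 both quantile normalization (3 and 2) and voom (4 and 3) gave more members higher than lower, and at P35 the counts were 5 higher and 1 lower by the former and 5 higher and 0 lower by the latter. In mouse-1 at P10 both gave 1 higher and 7 lower. Of 12326 genes, voom called 2403 higher and 2292 lower with maturation of mouse-1 at P10. These numbers were 1695 and 1777 in clone-1, and 2726 and 2912 at P35. Medians of the members were −2.0, 1.62, 0.25 and 0.52 on the log2 scale, against −0.17, −0.35, −0.38 and −0.59 for all genes.

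Saa1 shows the contrast between the lines. In mouse-1 it went from the 1036 to 1384 FPKM given above to 231, 236 and 310 FPKM, and in mouse-2 from 149 to 162 FPKM up to 886, 894 and 811 FPKM. The log2 changes were −2.25 ± 0.19 and 2.49 ± 0.19, and their difference was 4.73 ± 0.27 (adjusted p = 9.3e-15). Saa2 went to 88.9, 103 and 132 FPKM in mouse-1 (−2.89 ± 0.15) and to 455, 442 and 419 FPKM in mouse-2 (2.42 ± 0.15). In clone-1, Saa2 dropped to 17, 18.0 and 21.8 FPKM (−3.16 ± 0.15), while Saa1 at 100, 101 and 131 FPKM was near the 2-fold line (−1.04 ± 0.19). At P35, Saa1 was at 15.8, 28.6 and 19.1 FPKM (0.89, not called) and Saa2 at 2.78, 4.0 and 3.28 FPKM (−1.09 ± 0.15). Both changed status under other scalings at P35, where Saa1 was called by quantile normalization (1.47) and voom (1.69) and Saa2 was not (−0.34 and −0.57). The call of Saa1 in clone-1 was lost under both (−0.83 and −0.59).

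Saa3 fell with maturation in mouse-1 at P10 to 11, 6.87 and 8.30 FPKM, near the 6.80 to 9.52 FPKM of hepatocytes (−5.02 ± 0.26, adjusted p = 1.0e-16). It fell in clone-1 to 363, 378 and 414 FPKM (−3.17 ± 0.26) and at P35 to 125, 157 and 126 FPKM (−1.18 ± 0.26), but −0.46 by voom there. Mouse-2, which had little Saa3 before, stood at 12.1, 13.4 and 9.29 FPKM. The recruited myeloid list summed to 18.3 to 20.2 FPKM in clone-1 and 17 to 21.4 at P35 after maturation, below its sums before. Of its 8 genes, 1 averaged 1 FPKM or more in clone-1 and 2 did at P35. Whether these sums bear on Saa3 was not tested. Saa4 was at 10.3, 10.2 and 11.3 FPKM in mouse-1 (−1.91 ± 0.11) and 24.0, 26.6 and 25.5 FPKM in mouse-2 (2.33 ± 0.11), with 9.77 to 12.5 in clone-1 and 1.05 to 1.71 at P35. On the log2(FPKM + 1) scale neither was called (0.89 and 0.99), while quantile normalization (1.34 and 1.20) and voom (1.46 and 3.41) called both higher, as did a pseudocount of 0.1 at P35 (2.23), where Saa4 had been at 0.236 FPKM on average.

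Orm1 ended at 599, 535 and 739 FPKM in mouse-1 (−1.71 ± 0.11), 1576, 1551 and 1621 in mouse-2 (1.3 ± 0.11), 329 to 373 in clone-1 (0.54, not called) and 132 to 156 at P35 (1.37 ± 0.11). Orm2 moved likewise, to 113, 109 and 157 FPKM in mouse-1 (−2.09 ± 0.12) and 439, 424 and 418 FPKM in mouse-2 (1.21 ± 0.12). It was at 38.2 to 47.7 FPKM in clone-1 and 3.86 to 4.47 at P35, not called in either, but in clone-1 it was called by quantile normalization (1.22) and voom (1.29). After quantile normalization Orm1 and Orm2 were at 0.37 and 0.31 in mouse-2 and no longer called. Orm3 lay between 0.0766 and 1.88 FPKM in all mature cells, at log2 changes of −3.93 ± 0.15 in mouse-1 and −1.15 ± 0.15 in clone-1, the latter call lost by quantile normalization (−0.73).

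The haemoglobin and haem carriers were not called lower with maturation in any line. Hp reached 11545, 11147 and 12339 FPKM in mouse-1 (0.49, not called), 15865, 16126 and 16213 in mouse-2 (1.41 ± 0.09), 6583 to 7552 in clone-1 (0.84, not called) and 7790, 8705 and 8068 at P35 (4.42 ± 0.09, 21.5-fold of means, adjusted p = 2.2e-26). Hpx reached 4788, 4762 and 6459 FPKM in mouse-1 (0.76, not called), 9016, 10104 and 9194 in mouse-2 (1.83 ± 0.11), 3908 to 4572 in clone-1 (1.79 ± 0.11) and 2001 to 2415 at P35 (2.84 ± 0.11). Hpx in mouse-1 was called by quantile normalization (1.01) and voom (1.07), and Hp in clone-1 by voom (1.29). A2m appeared in mouse-2 IL6-iMHs at 5.09, 4.24 and 4.72 FPKM (1318 to 1857 reads, 2.39 ± 0.06) and was at 0 reads in all clone-1 IL6-iMHs.

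**Figure D2:**
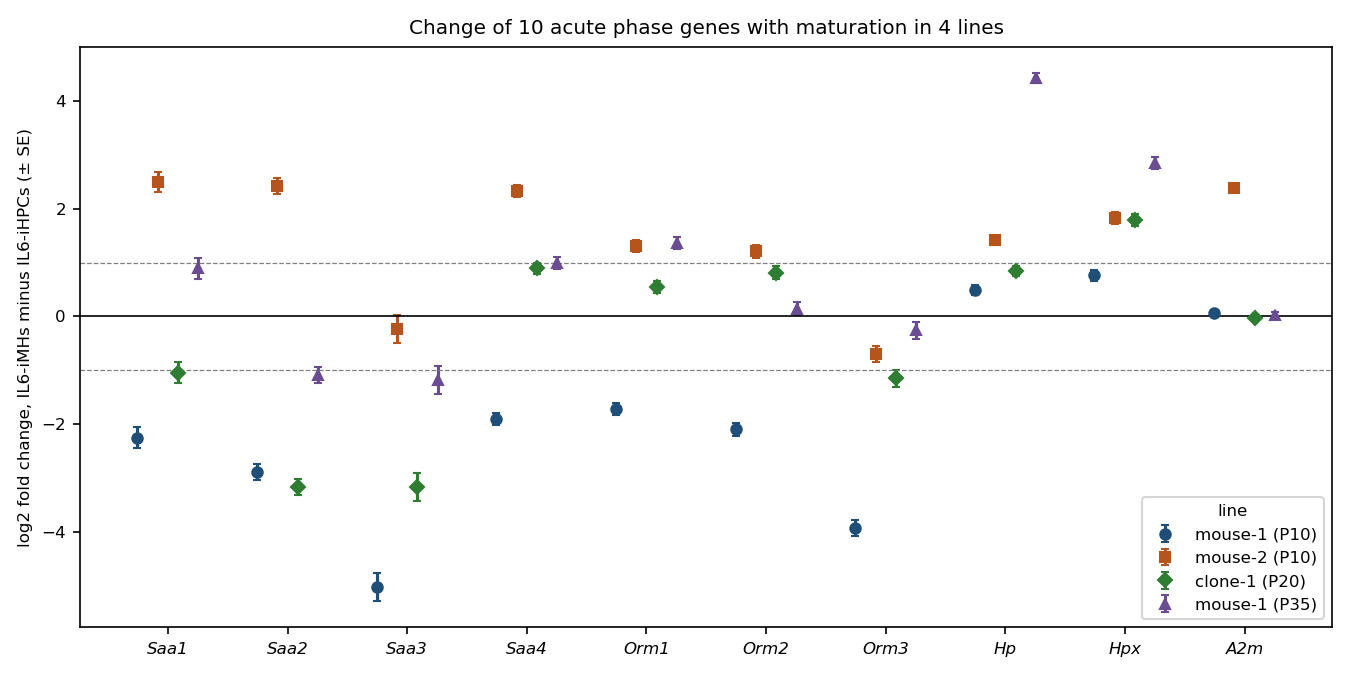
Log2 change of each gene from IL6-iHPCs to IL6-iMHs in the 4 lines, with standard errors from limma; dashed lines mark 2-fold. Mouse-1 at P10 lies below 0 for all Saa and Orm genes and mouse-2 above 0 for 8 of the 10, while Hp and Hpx lie above 0 in each line.

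Tested directly, maturation differed between lines for most members. The change in mouse-2 was called more positive than that in mouse-1 at P10 for 9 of 10 members and more negative for 0 (3.49% and 11.3% of all genes). For clone-1 against mouse-1 at P10 the counts were 7 and 0 (10.5% and 20.3%), and for P35 against P10 of mouse-1 9 and 0 (9.65% and 24.1%). In mouse-2 against mouse-1, Hpx was no longer called by quantile normalization (0.41), while Hp (0.92) was called by it (1.37) and by voom (1.19). The 3 tests share the mouse-1 samples at P10, in which the Saa and Orm levels before maturation were the highest or next to highest of the 4 lines. After maturation at P35, 6 members were lower than after maturation at P10 and 1 was higher (2.64% and 3.57% of all genes), the higher member being Saa3 (3.83 ± 0.26) and those lowest Saa2 (−4.63 ± 0.15) and Orm2 (−4.61 ± 0.12).

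Compared with hepatocytes, mature cells carried more Hp in all 4 lines and less Saa4 in all 4. Called higher and lower were 4 and 2 members in mouse-1 at P10 (25.4% and 7.25% of all genes), 5 and 1 in mouse-2 (17.6% and 7.63%), 3 and 3 in clone-1 (35% and 10.4%) and 2 and 7 in mouse-1 at P35 (27.1% and 8.02%). The log2 difference of Hp from hepatocytes was 2.24, 2.71, 1.49 and 1.73 in that order, each above the median of all genes, which was 0.45, 0.26, 0.60 and 0.45. By voom the excess of Hp fell under 2-fold in clone-1 (0.51) and at P35 (0.93). Saa4 was at −3.87, −2.69, −3.82 and −6.11, and no IL6-iMH sample exceeded 26.6 FPKM against 166 FPKM in the lowest hepatocyte sample. In mouse-2, Hpx (0.14 ± 0.11, adjusted p = 0.258) and Orm1 (0.22 ± 0.11, adjusted p = 0.0870) were not called, and Saa1 (3.33 ± 0.19), Saa2 (4.09 ± 0.15) and Orm2 (4.44 ± 0.12) stood above hepatocytes. Hpx in clone-1 was lower than in hepatocytes (−1.05 ± 0.11) but at 0.03 after quantile normalization. Other calls lost were Orm1 in mouse-1 by quantile normalization (−0.75), Saa1 in mouse-1 by voom (0.84), and Orm2 in clone-1 by both (0.74 and 0.22). Hpx in mouse-1 (−1.45) and Saa2 in clone-1 (−1.37) were called lower by voom, and Orm3 in both lines was called lower by quantile normalization (−1.03 and −1.13) and voom (−1.15 and −1.22).

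Ordered by mean level over the 11 cell groups, Saa1 ran from mouse-1 IL6-iHPCs at P10 (1230 FPKM) and mouse-2 IL6-iMHs (863) through mouse-1 IL6-iMHs (259) and clone-1 IL6-iHPCs (227), whose ranges overlapped, to P35 IL6-iHPCs (10.6) and D14 (6.59). The same 2 groups led Saa2 (809 and 439 FPKM), Orm1 (2042 and 1583) and Orm2 (537 and 427), with no overlap between them in any of these genes. Hepatocytes had rank 7 of 11 in Saa1, 6 in Saa2, 3 in Orm1 and 8 in Orm2. Saa3 was led by clone-1 IL6-iHPCs (3474), after which clone-1 IL6-iMHs (385) and the mouse-1 IL6-iHPCs at P10 and P35 (340 and 309) overlapped in turn, and hepatocytes came last (8.29). Hp was led by mouse-2 and mouse-1 IL6-iMHs (16068 and 11677 FPKM) and Hpx by mouse-2 IL6-iMHs (9438) and hepatocytes (8552), which overlapped. A2m, beyond D14 (63.9) and mouse-2 IL6-iMHs (4.68), had no group mean over 0.113 FPKM.

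In the liver, partial hepatectomy was followed by higher levels of most members within 6 h. At 6 h Saa1 and Saa2 changed most, Orm2, Orm3 and Saa3 next, and Orm1, Hp and Hpx, which were abundant to begin with, by less, while Saa4 was not called at any time in the fit over all 6 groups. Of 9 members tested (A2m was too low for the filter), 7 were called higher at 6 h, 8 at 24 h, 7 at D3, 5 at D7 and 0 at D14, and 0 were called lower at any of the 5 times. All genes called higher made up 4.78%, 3.74%, 3.33%, 7.81% and 0.981% of the 11114 tested, and those called lower 11.5%, 4.16%, 2.49%, 1.03% and 2.0%. Quantile normalization set the split of all genes to 758 higher and 674 lower at 6 h, 580 and 221 at D7 and 128 and 141 at D14. The median change of the 9 was 2.23, 2.43, 1.70, 1.14 and 0.46 on the log2 scale, against −0.28, −0.02, 0.01, 0.13 and −0.08 for all genes. The 5 comparisons share the normal livers, and at D14 0 members had even an unadjusted p under 0.05 in limma, and 0 were called by voom, while a fit of these 2 groups alone called 1, Orm2. Of all genes at D14, 3329 had such a p in limma. Voom called 193 genes higher and 471 lower, and the fit of 2 groups 148 and 252.

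Saa1 was at 85.0, 65.4 and 198 FPKM in normal liver, 6734, 7834 and 6649 at 6 h and 11182, 15344 and 11149 at 24 h. Its log2 change was 6.08 ± 0.59 at 6 h (adjusted p = 2.8e-06) and 6.90 ± 0.59 at 24 h (adjusted p = 4.7e-06), with no overlap of any sample with normal liver. At D3 it was at 7673, 6161 and 1018 FPKM, at D7 at 879, 933 and 1249, and at D14 at 122, 330 and 221 FPKM, where its range overlapped that of normal liver. Saa2 started lower and rose further, from 28.4, 23.3 and 78.5 FPKM to 8132, 9170 and 8155 at 6 h and 11159, 15867 and 11446 at 24 h, log2 changes of 7.78 ± 0.69 and 8.36 ± 0.69 (196-fold and 296-fold of means). It stood at 8317, 6297 and 787 FPKM at D3, 391 to 728 at D7 and 43.6 to 155 at D14. Taken as a sum because of their likeness, Saa1 and Saa2 went from a mean of 159 FPKM in normal liver to 15558 at 6 h and 25383 at 24 h.

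Saa3 was at 10.5, 10.8 and 31.2 FPKM in normal liver, 33.9, 41.3 and 308 at 6 h and 210, 1571 and 180 at 24 h. Its log2 change at 6 h (2.23 ± 0.88, adjusted p = 0.0429) was no longer called without replicate 3 of PHX-6h (1.23, adjusted p = 0.231) or without replicate 1 or 2 of normal liver, or with no filter on low values. The change at 24 h (4.58 ± 0.88) was called with and without replicate 2 of that group (3.58 without it). The livers highest in Saa3 within these groups were those with A2m at 14.7 and 9.67 FPKM. Saa3 was back at 6.79 to 43.6 FPKM at D3, a log2 change from 24 h of −4.12 ± 0.88 (adjusted p = 0.00418). Saa4 was at 127, 114 and 132 FPKM in normal liver, 62.5, 123 and 248 at 6 h, 460, 382 and 282 at 24 h and 434, 37.4 and 251 at D3. All 3 livers at 24 h lay above all normal ones, yet the change of 1.56 ± 0.64 missed the threshold (adjusted p = 0.0716), although limma on these 2 groups alone called it (adjusted p = 7.8e-04). At D3 Saa4 was called without replicate 2 (1.4, adjusted p = 0.0174).

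Orm1 was at 1208, 1169 and 1465 FPKM in normal liver, 3767, 4694 and 3862 at 6 h, 5905, 8410 and 6476 at 24 h and 4089, 10219 and 1709 at D3. The log2 change was 1.68 ± 0.41, 2.43 ± 0.41 and 1.70 ± 0.41, and at D7 (1984, 2010 and 2088 FPKM) it was not called although no sample overlapped normal liver. Orm2 had its highest mean at D3. It was at 12.2, 13.8 and 27.2 FPKM in normal liver, 92.5, 379 and 133 at 6 h, 540, 591 and 336 at 24 h, 1164, 1612 and 161 at D3 and 244, 359 and 401 at D7. Its log2 change was 3.25 ± 0.70 at 6 h, 5.25 ± 0.70 at D3 and 4.21 ± 0.70 at D7 (adjusted p = 3.4e-04). Orm3 had 0.389 to 0.619 FPKM in normal liver and 4.17 to 10.4 FPKM at 6 h and 24 h, and its highest mean of 9.84 FPKM at D7 (8.63, 9.28 and 11.6), though its D7 range overlapped that of D3 and 6 h. Its log2 change at D7 was 2.86 ± 0.42 (adjusted p = 1.1e-04). From D7 to D14 Orm2, Saa2, Saa1 and Orm3 were each called lower, at log2 changes of −2.75, −2.69, −2.28 and −2.09, 4 of 9 members where 7.35% of all genes were called lower.

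Hp was at 2012, 2340 and 2622 FPKM in normal liver, 8497, 11167 and 8563 at 6 h, 10398, 12835 and 10216 at 24 h and 10344, 9374 and 3165 at D3, log2 changes of 2.01 ± 0.33, 2.26 ± 0.33 and 1.54 ± 0.33. At D7 it was at 3506 to 4396 FPKM (0.80 ± 0.33, adjusted p = 0.0837, called at 1.26 by quantile normalization), above normal liver in all 3 samples. Hpx went from 4130, 4659 and 5285 FPKM to 7121, 10600 and 10061 at 6 h, 13088, 19220 and 12399 at 24 h, 13170, 15464 and 7225 at D3 and 9264, 9220 and 10160 at D7. Hpx was called at 24 h (1.65 ± 0.28), D3 (1.28 ± 0.28) and D7 (1.03 ± 0.28, adjusted p = 0.0118), though the last call was lost when replicate 1 of normal liver (0.94) or replicate 3 of PHX-D7 (0.99) was left out, by voom (0.87) and with no filter, and at 6 h it was just under 2-fold (0.97 ± 0.28) and called by voom (1.32). In Hpx, as in Hp and Orm1, 14 days after surgery brought no call (0.40, 0.46 and −0.12). By mean level over the 6 liver groups, 24 h was first for Saa1, Saa2, Saa3, Saa4, Orm1, Hp and Hpx, D3 for Orm2 (979 FPKM) and D7 for Orm3. Normal liver was last but in Saa3 and Orm1, where PHX-D14 was (10.4 and 1175 FPKM). Only in Saa1 and Saa2 did the 24 h livers stand clear of the group next to them, 6 h, and in Saa4 no neighbouring groups were apart.

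A2m, which failed the filter in liver, was at 0.00785 to 0.0773 FPKM in normal liver (2 to 20 reads), 0.215, 0.287 and 14.7 at 6 h, 0.500, 9.67 and 0.647 at 24 h and 0.150 to 0.769 at D3. All livers at 6 h, 24 h and D3 lay above all normal ones, but most of the level at 6 h and 24 h came from 1 liver each. At D7 and D14 it was back at 0.00603 to 0.0957 FPKM. A fit with no filter gave 1.47 ± 0.83 at 6 h (adjusted p = 0.194) and 1.51 ± 0.83 at 24 h (adjusted p = 0.226).

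**Figure D3:**
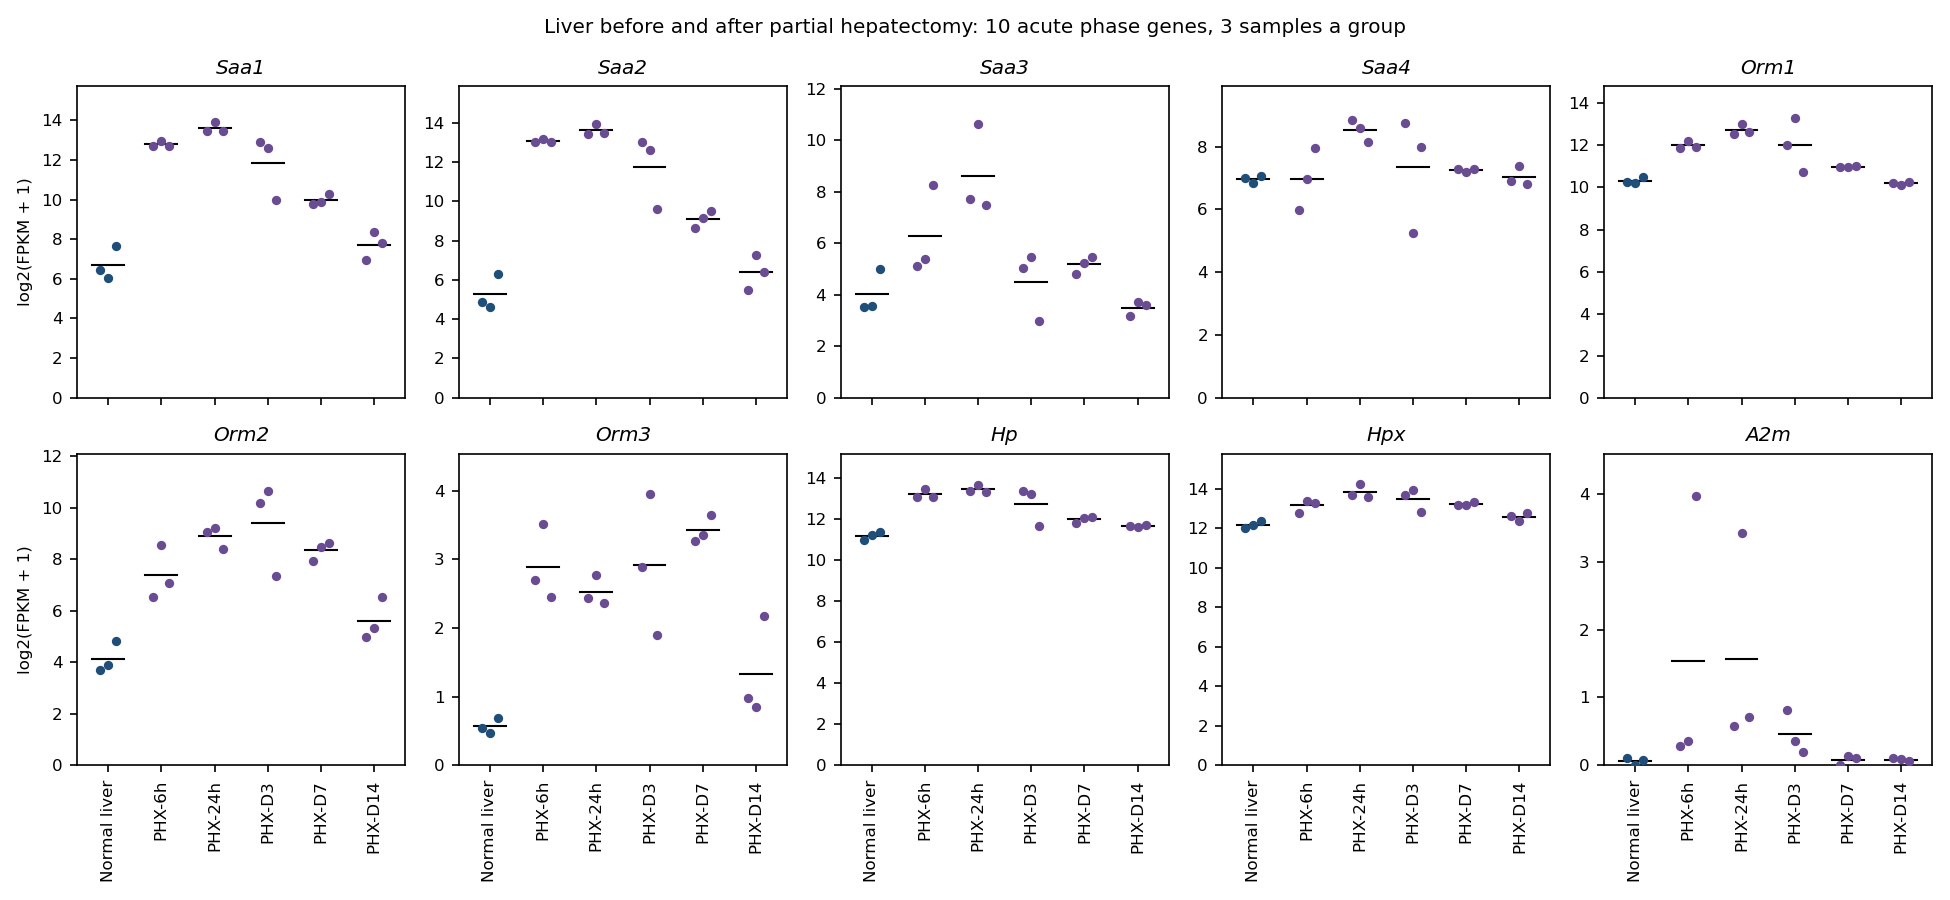
Levels of the 10 genes on the scale log2(FPKM + 1) in normal liver (blue) and 5 times after partial hepatectomy (purple). Dots are the 3 samples of a group and bars the mean of their log2 values. Saa1 and Saa2 are highest at 24 h, Orm2 and Orm3 are still raised at D7, and replicate 3 of PHX-D3 lies below its group in each gene but Saa4.

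The values at D3 depended on replicates 2 and 3. Without replicate 3 the log2 change of Saa1 against normal liver was 6.04 rather than 5.12, that of Saa2 7.56 rather than 6.49, that of Orm2 6.28 rather than 5.25 and that of Hp 2.09 rather than 1.54, with the same number of members called. Without replicate 2, Orm1 was at 1.05 rather than 1.70, Orm2 at 4.62, Saa3 at −0.03 rather than 0.46 and Saa4 at the 1.4 given above rather than 0.37. Between successive times few members passed the test. From 6 h to 24 h 1 of 9 was called higher, Saa3 (5.19% of all genes higher), from 24 h to D3 2 were lower, Saa3 and Saa1 (1.65% lower), and from D3 to D7 2 were lower, Saa2 and Saa1 (1.31% lower). Saa3 from 6 h to 24 h (2.34 ± 0.88, adjusted p = 0.0476) was lost without replicate 1 or 2 of PHX-6h or replicate 2 of PHX-24h, and Saa1 from 24 h to D3 (−1.77 ± 0.59, adjusted p = 0.0419) when any 1 of the 24 h livers or replicate 3 of PHX-D3 was left out (−0.85 without the last). Saa1 from D3 to D7 (−1.85 ± 0.59, adjusted p = 0.0246) was lost without replicate 1 or 2 of either group.

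Other cell types of the liver changed over the same times. The 10 Kupffer cell markers summed to 261 to 399 FPKM in normal liver, 97.4 to 193 at 6 h and 1438 to 2090 at D7, with 9 called lower at 6 h and 10 higher at D7. The recruited myeloid list went from 62.4 to 107 FPKM in normal liver to 416 to 628 at D7. Hepatocyte markers summed to 31281 to 35748 FPKM at 24 h, below normal liver, with 3 of 8 called lower. Endothelial markers summed to 117 to 123 FPKM in normal liver and 68.9 to 81.7 at 6 h, with 1 of 7 called higher and 3 lower, and red cell markers to 87.4 to 150 and, at D7, 238 to 310 FPKM, with 4 of 5 called higher. Of the stellate and biliary markers 2 of 8 and 0 of 5 were called higher at D7. Of all genes, 4.78% were called higher and 11.5% lower at 6 h, 4.16% lower at 24 h and 7.81% higher at D7. The part of these marker shifts in the members' levels was not tested. At D7 Saa3 was at 27.1, 37.0 and 43.2 FPKM (1.14 ± 0.88, not called), and limma on these 2 groups alone called it (adjusted p = 0.0222).

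Within the families, the balance of copies differed between groups, and in culture the ratio of Saa2 to Saa1 did not follow the levels. The ratio of Saa2 to Saa1 was 0.274 to 0.306 in hepatocytes and 0.334 to 0.397 in normal liver, 1.17 to 1.23 at 6 h and 0.998 to 1.03 at 24 h, and then 0.774 to 1.08 at D3, 0.444 to 0.598 at D7 and 0.359 to 0.470 at D14. In culture it was 0.945 to 1.16 at D14 and 0.740 to 0.812 in clone-1 IL6-iHPCs, but 0.166 to 0.178 in clone-1 IL6-iMHs and 0.140 to 0.176 in mouse-1 IL6-iMHs at P35. In mouse-1 IL6-iHPCs it was 0.463 to 0.790 at P10, where Saa1 and Saa2 were highest in culture, and 0.733 to 0.830 at P35. The ratio of Orm2 to Orm1 was 0.0136 to 0.0141 in hepatocytes and 0.0101 to 0.0186 in normal liver, 0.123 to 0.192 at D7 after surgery, and 0.256 to 0.297 in IL6-iHPCs of mouse-1 and mouse-2 at P10. Saa3 exceeded Saa1 at D3 and D14 of culture (2.82 to 3.98), and in clone-1 and P35 IL6-iHPCs it did so by 15 to 15.6 and 27.3 to 32.3 times, while in livers it stayed at 0.165 of Saa1 or less. Because reads of these copies cannot be split with certainty, the Saa2 and Orm2 ratios are descriptive.

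**Figure D4:**
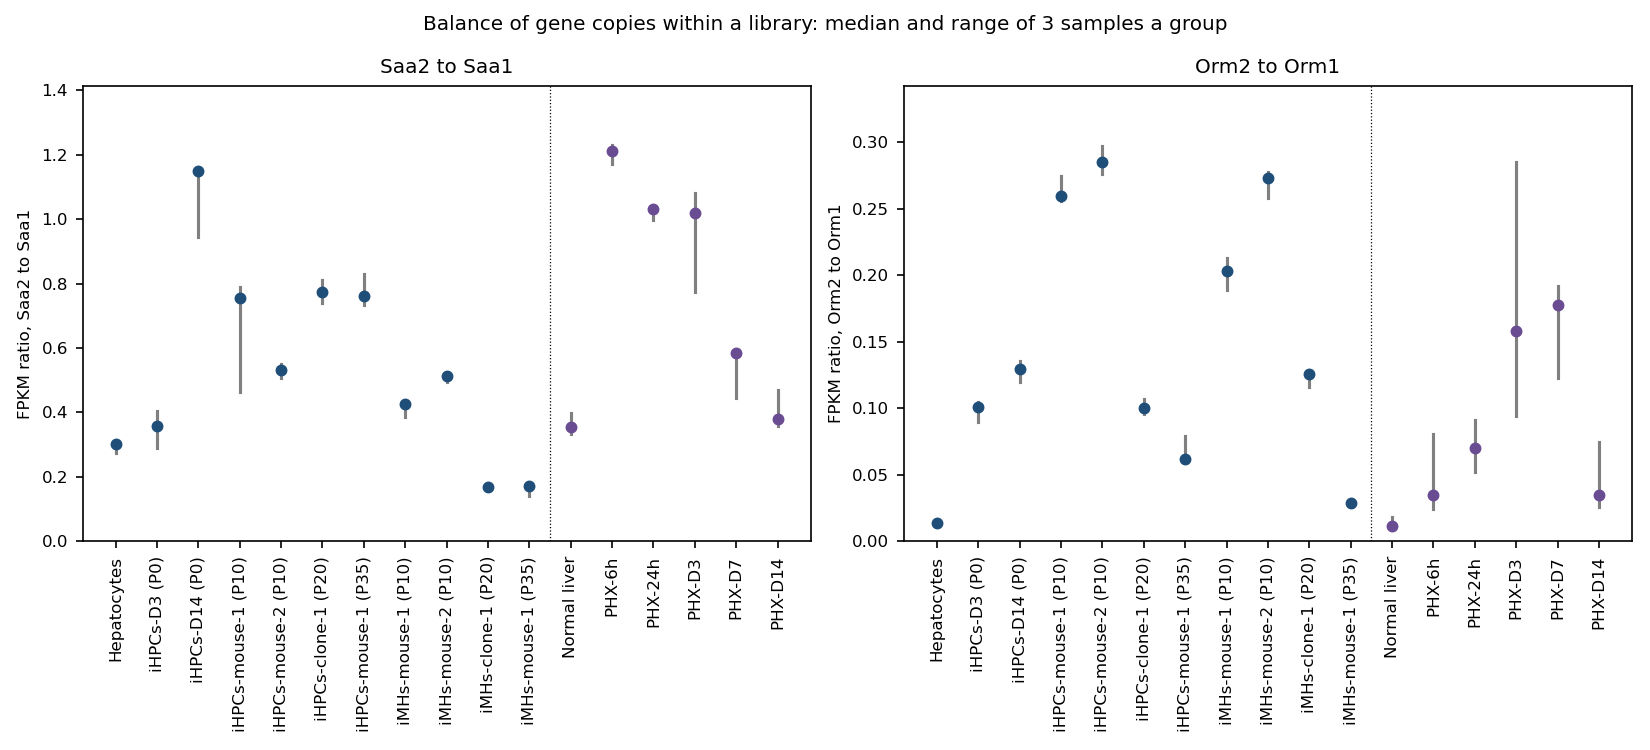
Ratios of Saa2 to Saa1 and of Orm2 to Orm1 (FPKM over FPKM) in the cell (blue) and liver (purple) groups, with dots for the median and lines for the range of 3 samples. In liver the Saa2 to Saa1 ratio is highest at 6 h, at 1.17 to 1.23, and the Orm2 to Orm1 ratio is highest at D3 and D7.

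Together the 10 genes made up 2.01% to 2.19% of summed FPKM in hepatocytes and 1.34% to 1.70% in normal liver. The share was 3.87% to 4.23% in mouse-1 IL6-iHPCs at P10 and 0.238% to 0.242% at P35, 4.94% to 5.08% in mouse-2 IL6-iMHs, and 5.99% to 7.67% at 6 h and 9.29% to 12.5% at 24 h after surgery. Hp and Hpx held most of it in culture, so the share does not speak for the Saa genes there.

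**Figure D5:**
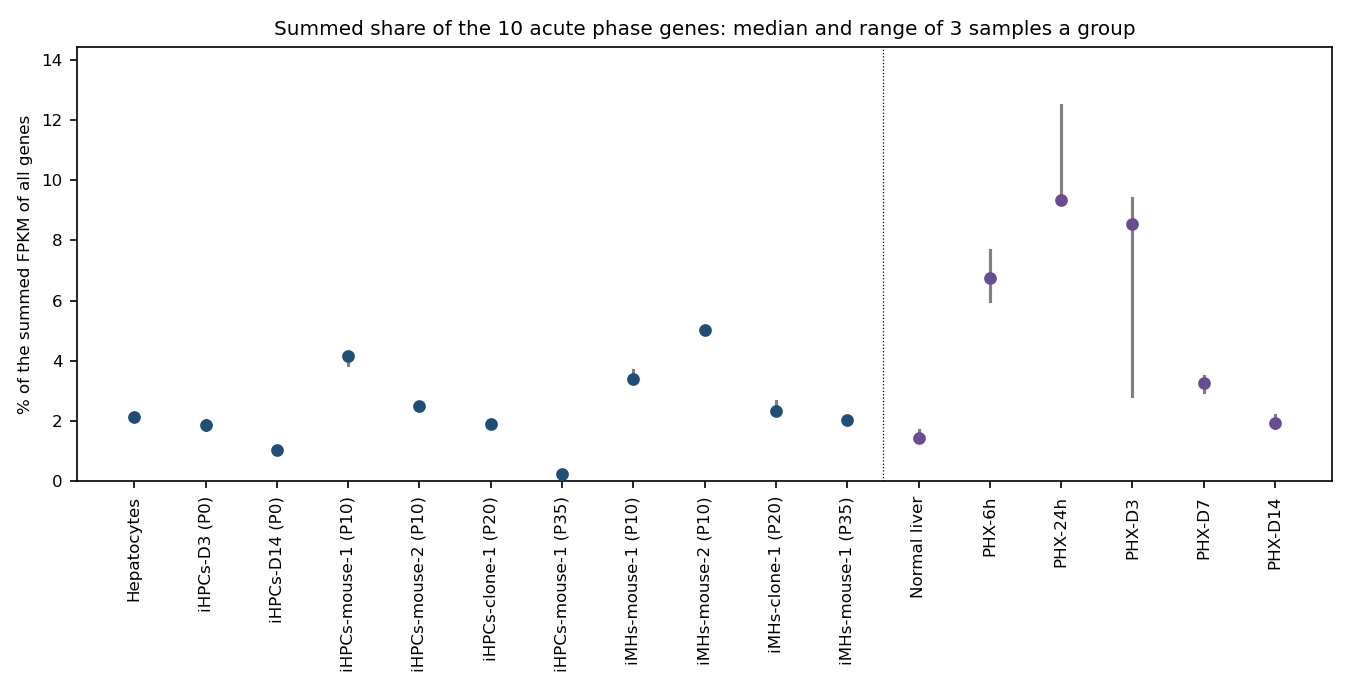
Share of summed FPKM taken by the 10 genes in the cell (blue) and liver (purple) groups, in percent, with dots for the median and lines for the range of 3 samples. The livers at 24 h have the highest median, within 9.29% to 12.5%, and the P35 IL6-iHPCs lowest, at 0.238% to 0.242%.

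Other positive acute phase genes, a list of 27 from general knowledge, were counted in the same comparisons. After surgery 18 of 27 were called higher at 6 h, 20 at 24 h, 16 at D3, 8 at D7 and 4 at D14, with 0 lower, at medians of 1.81, 1.62, 1.77, 0.70 and 0.40, against 4.78%, 3.74%, 3.33%, 7.81% and 0.981% of all genes called higher. Lcn2, which starves bacteria of iron, went from 5.34 to 3173 FPKM at 6 h and 4175 at 24 h, and the metal-binding Mt2 from 3.73 to 3698 FPKM at 6 h. In culture 9 of 26 were higher and 10 lower at D3 (53.9% and 12.1% of all genes), with Lcn2 at 1955 against 2.88 FPKM in hepatocytes but Serpina1a, a protease inhibitor, at 9.74 against 2439. In passaged IL6-iHPCs 19, 17, 9 and 6 were higher and 5, 6, 12 and 17 lower in the order mouse-1 at P10, mouse-2, clone-1 and P35, where 40% to 54.3% of all genes were higher and 10.4% to 13.1% lower, and 21 were lower at P35 than at P10 (8.94%). With maturation 4, 7, 16 and 16 were higher (5.86% to 11.2% of all genes) and 6, 3, 0 and 2 lower (15.4% to 35.1%).

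Of the 14 plasma proteins that fall in an acute phase response, the negative acute phase list, none was called higher than in hepatocytes in culture with IL6, while 13 were lower at D3, 12 at D14 and 11 to 13 in passaged IL6-iHPCs (10.4% to 13.1% of all genes in these comparisons), and 8, 10, 9 and 11 were higher with maturation (5.86% to 11.2%), with 1 lower, in mouse-2. In liver 1 was called lower at each of 6 h, 24 h and D3, where 11.5%, 4.16% and 2.49% of all genes were lower. Transthyretin (Ttr) was at 1782 FPKM at 24 h against 4743 in normal liver.

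Of 17 tested genes of IL6 and STAT3 signalling, 9 were higher and 1 lower at D3, where 53.9% and 12.1% of all genes were, so the share of higher genes was near that of all genes. Among them were the oncostatin M receptor subunit Osmr at 33.3 against 0.0344 FPKM in hepatocytes, the shared subunit Il6st at 45.9 against 8.85, Stat3 at 95.9 against 25.4 and the leukaemia inhibitory factor receptor Lifr lower at 11.5 against 103. With maturation 1, 0, 0 and 1 were higher and 7, 9, 3 and 9 lower, against the 5.86% to 11.2% and 15.4% to 35.1% of all genes. Socs3, the feedback inhibitor of the pathway, was lower in each line, for example at 11.8 against 56.1 FPKM in mouse-1 at P10 and, where Saa1 rose, at 23.3 against 102 in mouse-2. After surgery 5 were higher and 5 lower at 6 h (4.78% and 11.5% of all genes), Socs3 from 4.66 to 43.1 and Stat3 from 24.6 to 79.8 FPKM. Among 17 hepatocyte transcription factors 10 were higher and 2 lower at D3, again near the shares of all genes, with Cebpa at 47.7 against 274 FPKM and Cebpb at 160 against 42.8, and of 16 tested in liver 3 were higher and 2 lower at 6 h, with Cebpd at 24.9 against 2.46 FPKM and Cebpa at 42.7 against 217. The D7 values, which hold none of the members, give Cebpd at 2.75, 2.66 and 2.98 FPKM in primary hepatocytes, 11.3, 8.62 and 9.05 after culture without IL6 and 58.9, 74.5 and 63.2 with it.

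Genes of the IL1 and TNF inputs were 7 higher and 1 lower of 12 at D3, near the 53.9% and 12.1% of all genes, and 7 higher and 0 lower of 13 at 6 h after surgery (4.78% and 11.5%), the IL1 receptor Il1r1 going from 6.48 to 98.0 FPKM in the latter. Cd14, the lipopolysaccharide co-receptor, was at 0.309 FPKM in hepatocytes and at 50.2 at D3, 77.9 at D14, 106 in mouse-1 at P10, 78.3 in mouse-2, 221 in clone-1 and 79.9 at P35. Relatives of A2m gave 0 higher and 3 lower of 6 at D3. Pzp, the main mouse plasma macroglobulin, was at 758 FPKM in hepatocytes, 8.45 at D3, 486 at D14 and 3534 in mouse-1 IL6-iHPCs at P10, a course unlike that of A2m. Of 8 genes of haemoglobin and haem clearance other than Hp and Hpx, 2 were higher and 1 lower at D3, with the haem-degrading enzyme Hmox1 at 901 FPKM against 5.37, and of 9 in liver 1 was higher and 1 lower at 6 h, Hmox1 being at 77.4 against 12.8 FPKM.

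Genes whose group means followed a member most closely were ranked by Pearson correlation of mean log2 levels, over 11 cell groups or 6 liver groups and among 8591 candidates in cells and 5474 or 5475 in liver, with no test. Saa1 was closest to Saa2 in cells (r = 0.942) and in liver (r = 0.999), where Lcn2 came next for both (0.992). For Orm1 the closest in cells was Alas1 (0.890), the first enzyme of haem synthesis, and for Hp it was Oplah (0.962), with Lrg1, a leucine-rich acute phase glycoprotein, also near (0.892). Hpx was closest to Tmem243 (0.940) and Saa4 to the liver glycogen phosphorylase Pygl (0.903), while A2m was closest to Pamr1 (0.914) and the proteoglycan Gpc3 (0.901). In liver, Orm3 was followed by Il4ra (0.978) and the gp130 gene Il6st (0.974). Over so few groups many genes reach such values, and the groups share libraries with those tested above.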

How the data were processed

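Gene levels had been made from paired reads of 150 nt before deposit. The submitters' processing notes name TopHat 1.4.1, Cufflinks 1.3.0 and build mm10. The authors deposited 1 value per gene and sample, taken as FPKM from the tools named. The unit itself is not given in the sources used here. The values were whole multiples of a step set by gene and library, which does not by itself give the unit. This pattern held, within 0.02 reads, for 99.96% of genes above 0 in the 33 cell samples and 99.84% in the 18 livers. It gave read numbers, known up to a common factor. The 9 samples at D7 were used for 480 genes, of which 276 were tested. Symbols listed more than 1 time (2 in each of the larger tables) were averaged.

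Groups came from the sample labels. A gene was tested if 3 or more samples reached 1 FPKM (12328 genes in cells, 11114 in liver), on log2(FPKM + 1) with limma 3.58.1 (R 4.3.3) and a variance trend. Each table had 1 fit over its groups, and Benjamini-Hochberg adjustment ran over every gene in it. A gene was called at an adjusted p under 0.05 together with a fold of 2 or more. The tables were not combined. With 3 samples a group an exact permutation test of a single gene cannot go below p = 0.1, so none is given. No pair of samples in a group was alike within counting noise (lowest chi-square per degree of freedom 6.18 in cells, 31.6 in liver), so none was counted as a duplicate. The limma step was tested on simulated data.

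The members and 14 gene lists, written from general knowledge, were chosen with earlier results of these data known. Named with values were all members, from each list at most the 2 largest rises and the 2 largest falls that were called, 7 preset receptor, STAT and feedback genes, and for each member the genes most like it. Alternatives were a pseudocount of 0.1, no filter or one at 5 FPKM, quantile normalization, no fold threshold, voom with TMM scaling on the recovered reads, a fit of the compared groups alone, the replicate number as a block, sums of near-identical copies, and leaving out each sample in turn. Leaving out the 2 livers with high A2m was added after the data were seen. Promoter windows came from RefSeq (GRCm38). Python 3.11.15, numpy 2.4.6, pandas 2.3.3 and matplotlib 3.10.9 were used.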

Additional observations from a re-analysis of the deposited data

Results flagged for a closer look

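Maturation, the change from IL6-iHPCs to IL6-iMHs, differed between lines by a test of the difference itself, an interaction contrast in limma with mouse-1 at P10 as the common reference. All values are differences of log2 changes, each with a more positive change in the line named first. For mouse-2 at P10 they were 4.73 in Saa1, 5.31 in Saa2, 4.79 in Saa3, 4.24 in Saa4, 3.00 in Orm1, 3.29 in Orm2, 3.23 in Orm3, 1.07 in Hpx and 2.33 in A2m, with adjusted p of at most 1.4e-06 by limma. For clone-1 they were 1.21 in Saa1, 1.85 in Saa3, 2.79 in Saa4, 2.25 in Orm1, 2.89 in Orm2, 2.78 in Orm3 and 1.02 in Hpx, with adjusted p of at most 2.0e-04 by limma; the clone-1 samples before and after maturation did not match in Y-linked genes. For mouse-1 at P35 they were 3.14 in Saa1, 1.80 in Saa2, 3.84 in Saa3, 2.90 in Saa4, 3.07 in Orm1, 2.23 in Orm2, 3.66 in Orm3, 3.93 in Hp and 2.07 in Hpx, with adjusted p of at most 1.8e-08 by limma. As the samples of a line are technical repeats, these tests cover the spread of repeats of 1 culture each. The smallest differences were close to the 2-fold line. Without replicate 2 of mouse-1 IL6-iHPCs at P10, Hpx was at 0.94 for mouse-2 and 0.90 for clone-1. Hpx for mouse-2 was at 0.41 after quantile normalization. With Saa1 and Saa2 summed, the difference for clone-1 was 0.84.

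A2m, which was too low in liver to enter the comparisons, was at 14.7 FPKM in replicate 3 of PHX-6h and at 9.67 FPKM in replicate 2 of PHX-24h, above the 0.00785 to 0.0773 FPKM of the normal livers. These were also the livers with the highest Saa3 of their groups, at 308 and 1571 FPKM.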

How the results depend on the processing

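Limits lie mainly in scale and in the number of samples. Cell groups are technical repeats, liver groups hold 3 samples, and reads of near-identical copies cannot be split with certainty. Depth limits A2m in most groups and Orm3 in some.

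Quantile normalization, which removes the upward shift of the median gene in cultured cells, left 5 members called at D3 against hepatocytes and 5 with maturation of clone-1, but with 3 higher and 2 lower in each. It turned Orm1 at D3 to 0.35, Hp at D14 to 1.06, Orm3 in clone-1 IL6-iHPCs to −0.40 and Hpx in clone-1 IL6-iMHs to 0.03 (log2, against hepatocytes). Voom on recovered reads gave Hp at D3 −1.15, Saa3 at D14 −0.07 and, in clone-1 IL6-iHPCs, Orm2 −1.06, Orm3 −0.02 and Saa1 −0.00, and called 6 members in clone-1 IL6-iHPCs (2 higher, 4 lower), 7 with maturation of clone-1 (4 and 3) and 7 in mouse-1 IL6-iMHs at P10 against hepatocytes (3 and 4). Of the 12326 genes in the voom fit, 3998 were called higher and 3339 lower in clone-1 IL6-iHPCs. These numbers were 1695 and 1777 with maturation of clone-1, and 3156 and 2340 in mouse-1 IL6-iMHs at P10. Without the fold threshold 9 members passed at D3 and 9 with maturation of clone-1, in place of 5 in each. Most of the 12328 genes passed as well, 8890 as higher and 2489 as lower at D3, and 2262 and 7638 with maturation of clone-1.

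In liver, the comparisons between successive times were the ones that moved. From 6 h to 24 h the 1 call (Saa3) became 0 with no filter, by voom and with the replicate block. From 24 h to D3 the 2 calls became 1 with no filter, with quantile normalization, by voom, with the replicate block and without the 2 livers high in A2m, and 0 in a fit of the compared groups alone. That fit called 0 of all 11114 genes in either direction. Such a fit of 2 groups also gave 4 members rather than 7 at D3 against normal liver, 1 rather than 0 at D14 (Orm2, 1.47, adjusted p = 0.0230 by limma) and 0 rather than 2 from D3 to D7. Of all genes it called 172 higher and 109 lower at D3 against normal liver, where the main fit called 370 and 277. At D14 it called 148 and 252 (main fit 109 and 222), and from D3 to D7 663 and 101 (main fit 795 and 146). A fit of 2 groups has fewer samples for its estimate of spread. With 1 liver left out, the counts ran from 0 to 2 from 6 h to 24 h, from 1 to 5 from 24 h to D3 and from 1 to 5 from D3 to D7; the highest of these were reached without replicate 3 of PHX-6h, without replicate 1 of PHX-D3 and without replicate 3 of PHX-D3.

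Other counts of members called stayed within 1.5 times their value under each of these settings, and all 29 did so with a pseudocount of 0.1 and with the filter at 5 FPKM. Apart from the scale changes above, the causes were not tested. Replicate numbers did not pair the samples, since in 0 of 17 cell comparisons and 0 of 9 liver comparisons did every same-numbered pair deviate together with a correlation over 0.1. The replicate block kept 279 of 281 single tests on their side of the threshold, the exceptions being Saa3 from 6 h to 24 h and Saa1 from 24 h to D3.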
